A study of Mus musculus with 8 samples.

Results

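The genes described here are 4 proteases of the pericellular matrix, Mmp2, Mmp11, Adamts4 and Plau, and 2 metalloproteinase inhibitors, Timp2 and Timp3. They were taken by name from a deposited RNA-seq table of 622 genes, and all 6 were found there. The libraries came from mouse haemogenic endothelium, the endothelial stage from which blood cells emerge, made in culture from embryonic stem cells of strain 129. FLK1+ cells from embryoid bodies (d3.25) were kept for 2 days in liquid blast medium with 5 ng/ml VEGF, 10 ng/ml IL6 and medium conditioned by D4T cells, and all groups were then sorted as cKIT+ TIE2+ CD41- cells. The lines iDam and BryGFP had a wt background, and the lines iDamko (iDam_runx1-/-) and Ainv18ko (Ainv18_runx1-/-) were Runx1 knockouts (ko). Each line gave 2 libraries, called biological duplicates in the series' design text, so each genotype had 4. How many clones a line stands for is not given in the sources used here. Ainv18ko had no wt library of its own parental name, so line and genotype cannot be told apart when it is compared with BryGFP. Levels are in RPKM, the number of reads scaled by transcript length and by library size.

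Matrix metalloproteinases are zinc enzymes that are secreted as inactive precursors and cut collagens, gelatin, laminins and other matrix proteins once activated. Their relatives of the ADAMTS family cut proteoglycans, and urokinase, the product of Plau, turns plasminogen into plasmin, which in turn degrades fibrin and activates other proteases. TIMP proteins block these metalloproteinases by binding to the active site, and TIMP2 also takes part in the activation of the MMP2 precursor at the cell surface. Matrix remodelling of this kind accompanies the sprouting and migration of endothelial cells.

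The table held genes that the authors had selected, since every one of the 622 had an FDR under 0.05 against both iDam and BryGFP in the authors' deposited comparisons, which used all 4 ko libraries each time. The ko against wt values below are therefore descriptions. This selection did not use the comparisons of lines within a genotype, but it used the same libraries, so those comparisons are not independent of it. Genes that varied little among the 4 ko libraries could pass it more easily. Low values became whole reads, to a tolerance of 0.06 read, at depths of 22230000 to 58930000 reads per library. This held for 80.0% to 100% of the values tried, which numbered 10 to 37 in a library. Multiples of these depths also give whole reads, so the read numbers below are low estimates, and intervals on them cover counting error only. Runx1 was not analysed here and genotypes were taken from the labels. Of the genes that define the sort, neither Kit nor Tek nor Itga2b was analysed here, and of 21 endothelial markers 2, Cldn5 and Clec14a, were in the table and were detected in all 8 libraries.

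The 6 genes lie on 5 mouse chromosomes in the GRCm38 build of the GENCODE annotation, while the submitters' processing notes name mm9 for the reads. Mmp2 (ENSMUSG00000031740) spans chr8:92827291-92853420 on the plus strand. Mmp11 (ENSMUSG00000000901) spans chr10:75923222-75936496 on the minus strand, and Timp3 (ENSMUSG00000020044) spans chr10:86300372-86349506 on the plus strand. Adamts4 (ENSMUSG00000006403) spans chr1:171250421-171260637 on the plus strand, Plau (ENSMUSG00000021822) spans chr14:20836660-20843385 on the plus strand, and Timp2 (ENSMUSG00000017466) spans chr11:118301069-118355740 on the minus strand. Timp3 shares 1733 exonic bases, 21.3% of its own, with Syn3 on the opposite strand. Mmp11 shares 155 exonic bases (5.58%) with Chchd10, also on the opposite strand. Timp2 overlaps Cep295nl on the same strand, with 0 exonic bases in common. Whether the authors' counting used strand is not given in the sources used here. If it did not, reads of Syn3 and Chchd10 in the shared bases cannot be told apart from those of Timp3 and Mmp11. None of these 3 partner genes was analysed here.

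Promoter sequences from RefSeq (GRCm38.p6) were matched for 3 of the 6 genes, Mmp11, Timp2 and Timp3, and are shown because these genes were lower together in cells without RUNX1, a transcription factor that binds a short DNA core. Each runs 5′ to 3′ on the gene's own strand, from 250 bases before the start annotated in RefSeq to 50 bases after it. The windows of Mmp11 and Timp2 lie wholly inside the GENCODE spans given above, so these starts are not the outermost GENCODE ones. Capitals mark the letters TGTGGT or TGCGGT, the RUNX core, and CTATAAG, which resembles the TATA box, both searched on either strand. The windows are chr10:75932453-75932752 on the minus strand for Mmp11, chr11:118355362-118355661 on the minus strand for Timp2 and chr10:86300162-86300461 on the plus strand for Timp3.
Mmp11: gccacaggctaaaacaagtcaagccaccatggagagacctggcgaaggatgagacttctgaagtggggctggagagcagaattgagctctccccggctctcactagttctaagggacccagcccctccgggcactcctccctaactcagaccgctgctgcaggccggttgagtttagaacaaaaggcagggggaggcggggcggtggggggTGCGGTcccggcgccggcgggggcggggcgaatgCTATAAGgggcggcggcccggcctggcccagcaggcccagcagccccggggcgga
Timp2: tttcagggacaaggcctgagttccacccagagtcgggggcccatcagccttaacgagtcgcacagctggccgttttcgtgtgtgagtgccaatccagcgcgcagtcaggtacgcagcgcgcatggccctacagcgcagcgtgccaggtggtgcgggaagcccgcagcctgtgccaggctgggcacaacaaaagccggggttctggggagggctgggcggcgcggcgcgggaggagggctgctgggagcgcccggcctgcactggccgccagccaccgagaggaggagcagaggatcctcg
Timp3: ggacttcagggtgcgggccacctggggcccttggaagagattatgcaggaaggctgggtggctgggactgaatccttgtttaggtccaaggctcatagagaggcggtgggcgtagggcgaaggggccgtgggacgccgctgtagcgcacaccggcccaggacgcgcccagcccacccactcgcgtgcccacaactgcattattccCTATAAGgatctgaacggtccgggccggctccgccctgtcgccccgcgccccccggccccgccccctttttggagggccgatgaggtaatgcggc

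The Mmp11 window held 1 RUNX core, TGCGGT, whose first base lies at position -39 from the start, and the Timp2 and Timp3 windows held 0. Of the 32851 RefSeq promoter windows of the same length, 22.4% held a RUNX core on either strand. CTATAAG was found at -5 in Mmp11 and at -45 in Timp3, and in 1.73% of all windows. The GC box GGGCGG, the core letters bound by SP1-type factors, was found 4 times in Mmp11, 1 time in Timp2 and 2 times in Timp3, against 35.7% of all windows with at least 1 match. The AP-1 motif, TGACTCA or TGAGTCA, was found in none of these 3 windows and in 5.2% of all. No match overlapped another. All 3 promoters were GC-rich, at 67.0% for Mmp11 and Timp3 and 68.7% for Timp2, against a median of 52.7% over all windows. These matches describe letters in a window and give no binding.

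Mmp2, which encodes the gelatinase that degrades denatured collagen and type IV collagen of basement membranes, was the protease with the highest level in every library. Its level was 36.8 and 31.6 RPKM in iDam, 22.3 and 20.5 in BryGFP, 4.88 and 5.52 in iDamko, and 6.39 and 3.73 in Ainv18ko. All 4 wt libraries lay above all 4 ko libraries, and the lowest wt value was 3.21 times the highest ko value. The mean was 27.8 ± 7.73 RPKM in the wt libraries and 5.13 ± 1.12 in the ko libraries (SD, n = 4 each), a ratio of 5.42. Within wt, both iDam libraries were above both BryGFP libraries, while the ko lines overlapped.

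Plau, the urokinase gene, stood at 4.04 and 6.32 RPKM in iDam, 6.81 and 12.8 in BryGFP, 1.88 and 2.22 in iDamko, and 2.45 and 2.57 in Ainv18ko. Its means were 7.49 ± 3.73 RPKM in the wt libraries and 2.28 ± 0.303 in the ko libraries (SD, n = 4 each), a ratio of 3.28. The wt libraries were widely spread, with a highest value 3.17 times the lowest, whereas the ko libraries differed by at most 1.37 times. BryGFP library 2 was the highest, and both iDam libraries were below both BryGFP libraries.

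Mmp11, which encodes stromelysin-3, a metalloproteinase activated inside the cell by furin, was expressed at a lower level. It stood at 3.18 and 2.1 RPKM in iDam, 2.63 and 3.37 in BryGFP, 1.04 and 1.16 in iDamko, and 1.33 and 1.0 in Ainv18ko. Its wt lines overlapped, as did its ko lines, and the lowest wt value was 1.58 times the highest ko value. The mean was 2.82 ± 0.575 RPKM in the wt libraries and 1.13 ± 0.147 in the ko libraries (SD, n = 4 each), a ratio of 2.49.

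Adamts4 encodes an aggrecanase, an enzyme that cuts aggrecan and versican, and it had the lowest level of the 6 genes. It stood at 1.08 and 1.34 RPKM in iDam, 0.482 and 0.799 in BryGFP, 0.164 and 0.197 in iDamko, and 0.151 and 0.186 in Ainv18ko. As for Mmp2, the order was iDam above BryGFP above both ko lines, and the ko lines overlapped. Its means were 0.925 ± 0.37 RPKM in the wt libraries and 0.174 ± 0.0208 in the ko libraries (SD, n = 4 each), a ratio of 5.31. The ko values rest on an estimated 28 to 49 reads per library, with an exact 95% Poisson interval of 19 to 40 for the library with 28.

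Timp3, whose protein is bound to the matrix and inhibits ADAM and ADAMTS enzymes as well as MMPs, stood at 17.1 and 15.0 RPKM in iDam and 13.3 and 16.9 in BryGFP. In the ko lines it stood at 6.88 and 6.43 in iDamko and 6.46 and 5.69 in Ainv18ko. It was the steadiest of the 6 genes within a genotype, with a coefficient of variation of 11.5% in wt and 7.76% in ko. Its means were 15.6 ± 1.79 and 6.37 ± 0.494 RPKM (SD, n = 4 each), a ratio of 2.45.

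Timp2 encodes a soluble inhibitor that binds MMP2. It stood at 6.67 and 6.03 RPKM in iDam, 6.84 and 10.5 in BryGFP, 2.68 and 2.06 in iDamko, and 3.19 and 2.77 in Ainv18ko. BryGFP library 2, the highest for Plau, was also the highest for Timp2, and the lowest wt value was 1.89 times the highest ko value. The mean was 7.52 ± 2.04 RPKM in the wt libraries and 2.67 ± 0.466 in the ko libraries (SD, n = 4 each), a ratio of 2.81.

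**Figure D1:**
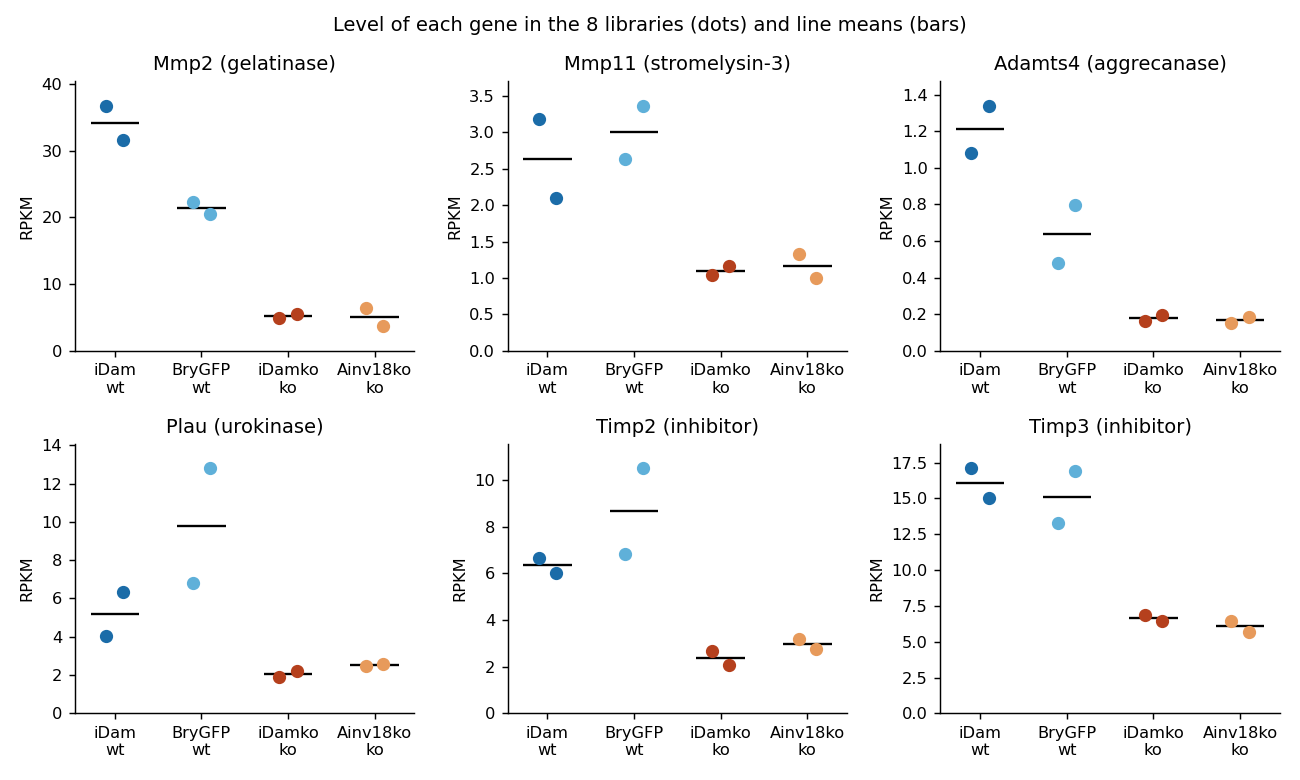
Level of each gene in RPKM (vertical axes, each from 0) in the 8 libraries, grouped by line, with dots for libraries and bars for the mean of the 2 libraries of a line. All 6 genes have their 4 ko libraries below their 4 wt libraries. Both iDam points lie above both BryGFP points for Mmp2 and Adamts4, and below them for Plau and Timp2.

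No library overlapped between wt and ko for any of the 6 genes, which were all lower in ko. In the table as a whole 99.4% of genes had no overlap, and 61.6% had none and were lower in ko, as the authors' selection gives, so nothing is read from that count. By the authors' deposited table the ko libraries were lower for Mmp2 by 6.26-fold against iDam and 4.09-fold against BryGFP, and for Adamts4 by 6.47-fold and 3.65-fold. The folds of the other 4 in the authors' deposited table ran from 2.13 (Plau) to 2.38 (Timp3) against iDam and from 2.3 (Timp3) to 4.23 (Plau) against BryGFP. The median of the authors' deposited folds over the 6 genes was 2.3 against iDam and 3.43 against BryGFP, beside 3.87 and 4.23 over all 387 genes that were lower in ko. Both of those comparisons share the same 4 ko libraries.

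Differences were fitted with limma on log2(RPKM + 1), a scale that understates the change of weakly expressed genes, over the 360 genes that averaged 1 RPKM or more, with Benjamini-Hochberg adjustment over all of them and a threshold of 0.05. Of the 6 genes 5 passed that filter. Adamts4, at a mean of 0.55 RPKM, did not, and its values come from a fit of all 622 genes. In ko against wt, Mmp2 was lower by the most, at -2.21 ± 0.22 (log2 difference ± SE, adjusted p = 9.04e-05). Plau followed at -1.28 ± 0.27, Timp2 at -1.19 ± 0.18, Timp3 at -1.17 ± 0.13 and Mmp11 at -0.83 ± 0.14, with adjusted p between 0.00014 and 0.00176. Adamts4 was lower by -0.69 ± 0.13 on this compressed scale (adjusted p = 0.000986), and by -1.83 with a pseudocount of 0.1 in place of 1. All 6 passed the threshold, as did 100% of the genes tested, of which 56.7% were lower in ko, so the count says nothing about these genes. This fit counts all 8 libraries as separate replicates, although each line gave 2 of them. With the line means as replicates, adjusted p in limma was 0.0111 for Mmp2 and 0.0102 to 0.0257 over the 6 genes. In that fit 342 of the 360 filtered genes passed. The median log2 difference was -1.19 over the 5 genes and -0.83 over all 360. Mmp2 had a lower difference than all but 8.89% of the genes tested, whereas Mmp11 lay at 49.7%, the middle of the table, and Plau, Timp2 and Timp3 lay between 27.5% and 31.7%.

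Scaling mattered for Mmp11 and Adamts4, the 2 genes of lowest level. Quantile normalization, which gives every library the same distribution over these selected genes, moved the median log2 difference of all 360 genes by 0.65, from -0.83 to -0.18, and the share of called genes that were higher in ko from 43.3% to 54.8%. Under it Mmp2 was at -2.06, Timp3 at -0.99, Plau at -0.84 and Timp2 at -0.83, all still past the threshold, with adjusted p between 8.06e-05 and 0.0123. Mmp11 came to -0.13 (adjusted p = 0.364) and Adamts4 to -0.26 (adjusted p = 0.127) in limma, so these 2 genes were lower in ko relative to library depth and not past the threshold on this scale.

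A fit in which each line had its own mean, and all 8 libraries 1 common spread, gave the ko against wt difference within each pair of lines. It is called the ko effect of the pair here, although for Ainv18ko against BryGFP line and genotype cannot be told apart. In iDamko against iDam, all 6 genes were called and lower in ko, beside 99.2% of the filtered genes called and 56.4% called and lower (95% called in the fit of all genes). Mmp2 was lower by -2.50 ± 0.24 (adjusted p = 3.53e-05 in limma), and the others lay between -0.78 (Mmp11) and -1.15 (Timp3). The Mmp11 call was lost without iDam library 1 (-0.56, adjusted p = 0.0511 in limma) and under quantile normalization (-0.15, adjusted p = 0.471). The Plau call was lost without iDam library 2 (-0.72, adjusted p = 0.0708 in limma) and under quantile normalization (-0.56, adjusted p = 0.117).

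In Ainv18ko against BryGFP all 6 were called and lower in ko too, beside 98.3% of the filtered genes called and 56.1% called and lower (93.6% called in the fit of all genes). Mmp2 was at -1.92 ± 0.24 and Plau at -1.56 ± 0.29, followed by Timp2 at -1.26, Timp3 at -1.18, Mmp11 at -0.88 and Adamts4 at -0.48, with adjusted p between 0.000122 and 0.00734 in limma. Under quantile normalization Mmp11 (-0.12, adjusted p = 0.595 in limma) and Adamts4 (-0.087, adjusted p = 0.58) were no longer called. Whether the ko effect, so named, differed between the pairs of lines was tested directly. Such a difference cannot be told apart from one between parental lines, since Ainv18ko had no wt library of its own. None of the 5 filtered genes was called for a difference between the pairs in limma, beside 9.72% of the genes tested. None of the 5 had an unadjusted p under 0.05. The largest of the 5 was that of Mmp2, with -0.58 and a 95% interval of -1.35 to 0.19 (adjusted p = 0.397). For Plau it was 0.57, with an interval of -0.36 to 1.5 (adjusted p = 0.534), and these intervals leave room for sizeable differences. For Adamts4 it was -0.42, with an interval of -0.82 to -0.022 and an unadjusted p of 0.0409 that did not pass after adjustment over all 622 genes (adjusted p = 0.21 in limma, beside 5.79% called).

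The comparison of the wt lines, iDam against BryGFP, was not used in the authors' selection, though the libraries of both lines were. Mmp2 stood in iDam at 34.2 ± 3.66 RPKM against 21.4 ± 1.25 in BryGFP (SD, n = 2 each), with a log2 difference of 0.65 ± 0.24. Plau stood in iDam at 5.18 ± 1.62 RPKM against 9.8 ± 4.22 in BryGFP, with a log2 difference of -0.77 ± 0.29. Neither passed after adjustment in limma (adjusted p = 0.086 and 0.0903), and both had an unadjusted p under 0.05 (0.0241 and 0.0261). The Mmp2 difference passed without either Ainv18ko library (0.65 each time, adjusted p = 0.0366 without library 1 and 0.0359 without library 2), and it did not without any other library (0.54 to 0.76 over all 8 fits, adjusted p up to 0.329). The size of the Plau difference depended on the library left out: it was -1.18 without BryGFP library 1 (adjusted p = 0.0285 in limma), -0.36 without BryGFP library 2 (0.538) and -0.50 without iDam library 1 (0.425).

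Of the 5 filtered genes 0 were called in iDam against BryGFP by limma, beside 25.3% of the genes tested, and 2 had an unadjusted p under 0.05. Timp2 was at -0.37 (95% interval -0.90 to 0.15), Mmp11 at -0.15 (-0.62 to 0.33) and Timp3 at 0.087 (-0.37 to 0.54). Adamts4 stood in iDam at 1.21 ± 0.188 RPKM against 0.64 ± 0.224 in BryGFP (SD, n = 2 each). Its log2 difference of 0.43 ± 0.12 passed in the fit of all genes (adjusted p = 0.0383 in limma, beside 21.4% called). That call was lost in 7 of the 8 fits that left out 1 library, with adjusted p from 0.0514 to 0.149, with a pseudocount of 0.1 (0.85, adjusted p = 0.106 in limma) and with no variance trend (0.43, adjusted p = 0.0645). By library values alone, 4 of the 6 genes did not overlap between the wt lines, beside 56.1% of all 622 genes.

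Between the ko lines the 6 genes lay close together. In iDamko against Ainv18ko no member was called in limma, with adjusted p of 1 for each, beside 3.61% of the filtered genes and 1.61% in the fit of all genes, and none had an unadjusted p under 0.05. Mmp2 was at 5.2 ± 0.449 RPKM in iDamko and 5.06 ± 1.88 in Ainv18ko (SD, n = 2 each), a log2 difference of 0.067 with a 95% interval of -0.48 to 0.61. The difference of largest size was that of Timp2, at -0.24 (-0.77 to 0.28), followed by Plau at -0.20 (-0.86 to 0.45). Plau and Timp2 did not overlap between the ko lines, 2 of 6 genes beside 20.6% of all 622. Intervals of this width do not show that the lines are alike. The authors' selection used the same ko libraries and could favour genes that vary little among them.

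**Figure D2:**
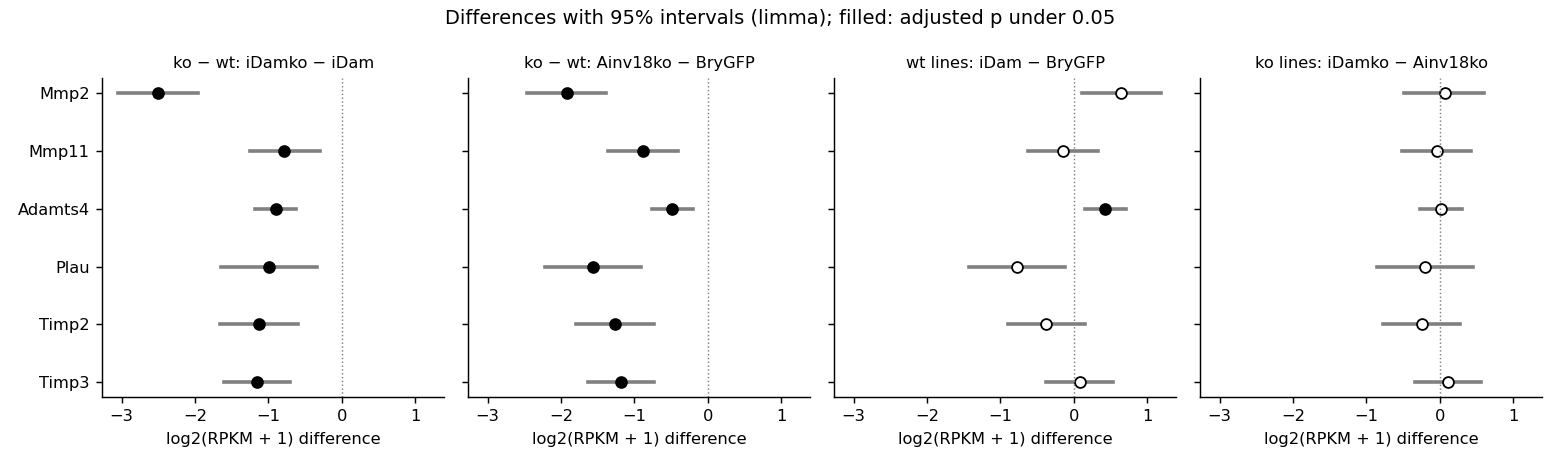
Log2(RPKM + 1) differences from limma (horizontal axes) for each gene in 4 comparisons of lines, with 95% intervals as lines and filled points for adjusted p under 0.05; Adamts4 comes from the fit of all 622 genes. Points of both ko against wt panels are filled and negative, Mmp2 is farthest from 0 there at -2.50 and -1.92, and the only filled point between lines of the same genotype is Adamts4 in iDam against BryGFP.

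Markers of other cell types differed between the groups too. The 4 of 18 smooth muscle and mesenchyme markers in the table (Acta2, Myl9, Pdgfrb and Cspg4) summed to 147 to 155 RPKM in iDam and 481 to 674 in BryGFP, against 26.3 to 28.9 in iDamko and 60.1 to 80.9 in Ainv18ko. The 2 endothelial markers, Cldn5 and Clec14a, summed to 28.2 to 39.7 RPKM in iDam, 9.9 to 14.0 in BryGFP, 5.72 to 6.24 in iDamko and 4.87 to 6.05 in Ainv18ko. Acta2 alone made up most of the mesenchymal sum in BryGFP, at 446 and 633 RPKM. Between the wt lines Acta2 (-2.05) and Pdgfrb (-1.97) were lower in iDam, with adjusted p = 0.00174 and 0.00179 in limma, while Myl9 (-0.31, adjusted p = 0.52) and Cspg4 (-0.018, 0.885) did not pass. Cldn5 (1.3, adjusted p = 0.0104) and Clec14a (1.44, 0.00244) were higher in iDam. The 4 of 22 erythroid markers (Alas2, Spnb1, Tfrc and Car2) summed to 50.7 to 71.4 RPKM in wt and 139 to 170 in ko. The 7 of 22 cardiac markers (Tnnt2, Tnni1, Gata4, Gata5, Hand1, Hand2 and Isl1) summed to 28.3 to 57.9 RPKM in wt and 88.9 to 116 in ko, with Hand1 and Isl1 lower in ko and the other 5 higher. Of 16 myeloid markers 1 was in the table, Lyz2, at 0.588 to 0.719 RPKM in wt and listed at 0 in 3 of the 4 ko libraries. The part of these markers in the levels of the proteases and inhibitors was not tested, and in bulk libraries fewer cells of a type and less RNA per cell cannot be told apart.

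Summed over the 4 proteases, the level was 45.1 and 41.4 RPKM in iDam, 32.2 and 37.5 in BryGFP, 7.96 and 9.1 in iDamko, and 10.3 and 7.49 in Ainv18ko. The 2 inhibitors summed to 23.8 and 21.0 RPKM in iDam, 20.1 and 27.5 in BryGFP, 9.57 and 8.48 in iDamko, and 9.65 and 8.46 in Ainv18ko. These 4 proteases thus exceeded the 2 inhibitors in all wt libraries, by a ratio of 1.36 to 1.97. In ko they lay at 0.833 to 1.07 of the inhibitors. These ratios depend on the gene lengths used: with the longest annotated transcript of each gene, a choice made after the data were seen, they were 2.78 to 4.03 in wt and 1.64 to 2.12 in ko, so proteases then exceeded inhibitors in all 8 libraries. The wt ratios of these sums lay above the ko ratios with either length. The sums leave out 9 other genes of matrix proteolysis described below, 7 lower and 2 higher in ko. Among them Ctsb, a protease gene, was at 7.47 to 12.2 RPKM in wt and 16.8 to 19.5 in ko. Its ko level alone exceeded every ko protease sum. The ratios therefore hold for the summed genes only, and their direction with other genes included was not tested. Mmp2 was the largest part of the protease sum, at 54.7% to 81.6% in wt and 49.8% to 61.9% in ko. The protease sum also holds Plau, whose product urokinase is not a metalloproteinase and is not blocked by TIMP proteins. These are RNA levels, and no protein or enzyme activity was measured.

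**Figure D3:**
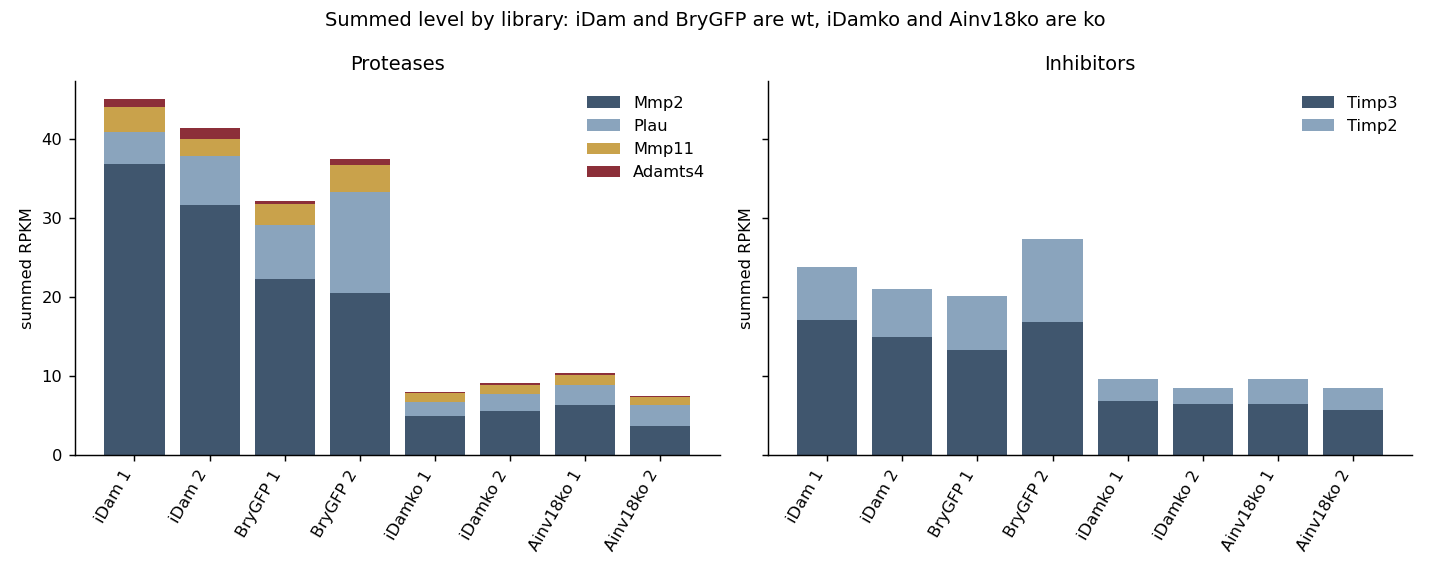
Summed RPKM (vertical axis, from 0, the same in both panels) of the 4 proteases and of the 2 inhibitors in each library, stacked by gene. The protease bars lie between 32.2 and 45.1 in wt and between 7.49 and 10.3 in ko, mostly through Mmp2, and the inhibitor bars lie between 20.1 and 27.5 in wt and between 8.46 and 9.65 in ko.

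Each protease was also set against an inhibitor within the same library, as a log2 ratio of RPKM. The ratio of Mmp2 to Timp2 was 2.46 and 2.39 in iDam, 1.7 and 0.96 in BryGFP, 0.86 and 1.42 in iDamko, and 1.0 and 0.43 in Ainv18ko. It was highest in iDam, while BryGFP library 2 lay among the ko libraries, so the genotypes overlapped. Adamts4 to Timp3 was the only one of the 4 ratios without overlap, at -4.79 to -3.48 in wt and -5.42 to -4.94 in ko. The gap from -4.94 to -4.79 is narrow. Adamts4 rests on an estimated 28 to 49 reads per ko library and 45 in the wt library with fewest, so counting error could cover that gap. Mmp11 to Timp3 was -2.48 ± 0.24 in wt and -2.5 ± 0.18 in ko (SD, n = 4 each), so both genes were lower in ko in close proportion. Plau to Timp2 was -0.1 ± 0.44 in wt and -0.22 ± 0.28 in ko (SD, n = 4 each), with overlap. Urokinase is not a metalloproteinase, so this last ratio does not set an enzyme against its own inhibitor.

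**Figure D4:**
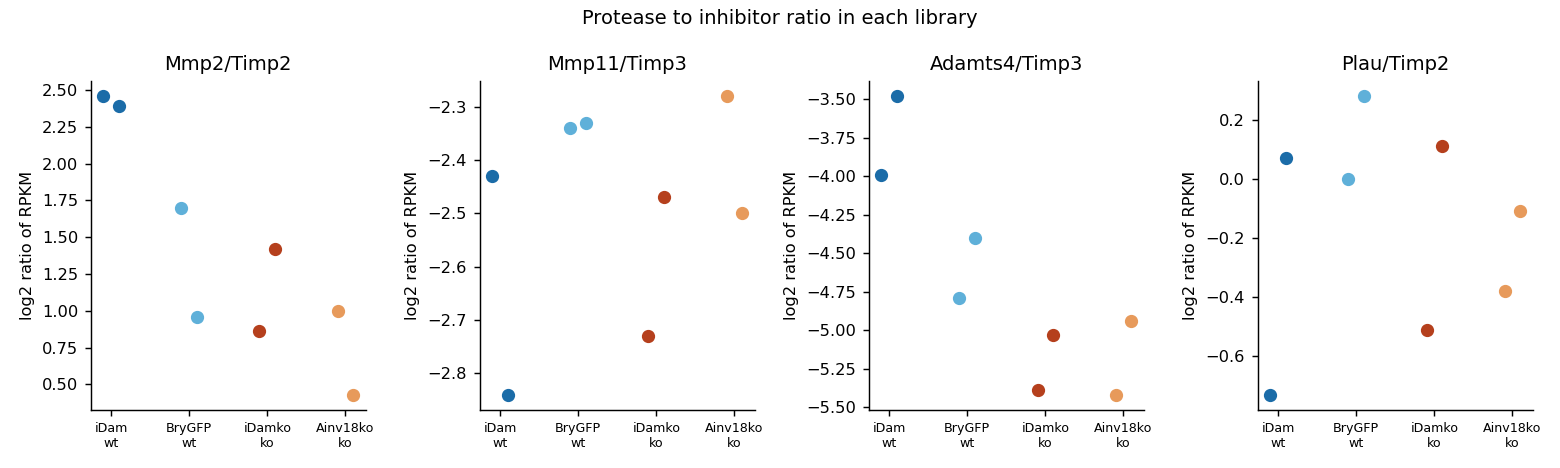
Log2 ratio of RPKM (vertical axes, which do not start at 0 and differ between panels) of each protease to an inhibitor, with 1 dot per library grouped by line. Only Adamts4 to Timp3 separates wt, from -4.79 up, from ko, up to -4.94. That gap is narrow for a gene with an estimated 28 to 49 reads per ko library. Mmp2 to Timp2 is highest in the iDam libraries, at 2.39 and 2.46.

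Ordered by RPKM, Mmp2 came first and Timp3 next in all 4 wt libraries, and Timp3 came first and Mmp2 next in all 4 ko libraries. Timp2 and Plau changed places between libraries and do not differ beyond their spread in wt, at 7.52 ± 2.04 and 7.49 ± 3.73 RPKM (SD, n = 4 each). Mmp11 and then Adamts4 came last in all 8 libraries. The order of the first pair in ko depends on the gene length used. The lengths implied by the authors' deposited values were 2261 bases for Timp3, 47.9% of its longest annotated transcript, 1596 for Timp2 (43.0%) and 1171 for Mmp11 (51.2%), beside 97.3% for Mmp2, 96.2% for Adamts4 and 99.4% for Plau. With the longest transcript, a choice made after the data were seen, the ko means became 4.99 RPKM for Mmp2 and 3.05 for Timp3. Mmp2 then came first there too, and the wt mean of Timp2 became 3.24 beside 7.44 for Plau. These rescaled values assume that reads were counted over the whole longest transcript, which is not given in the sources used here. If a shorter model was counted, they are too low for Timp2, Timp3 and Mmp11. Ratios of a gene's RPKM between libraries do not depend on its length. Its limma differences do, since a pseudocount was added to the RPKM, and so does its place against the filter on mean RPKM. The size of that dependence was not tested.

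Among wider lists of matrix protease genes, few were in the table. Of 23 matrix metalloproteinases 2 were present, Mmp2 and Mmp11, of 24 ADAMTS and ADAMTS-like genes 3, of 12 ADAM sheddases 0, and of 5 metalloproteinase inhibitors 2. With the plasminogen system (3 of 12) and other matrix-degrading enzymes and their inhibitors (5 of 29), 15 of 105 listed genes were in the table, 13 lower and 2 higher in ko. Leaving out the 6 genes described above, 9 of 99 were present, 7 lower and 2 higher, beside 62.2% lower among all 622 genes. Listed genes that the table lacks were not analysed here.

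The ADAMTS genes beside Adamts4 were Adamts7, which cuts cartilage oligomeric matrix protein and was at 1.8 ± 0.342 RPKM in the wt libraries and 0.855 ± 0.129 in the ko libraries, and Adamts12, at 0.261 ± 0.0607 and 0.0239 ± 0.0251 (SD, n = 4 each). Adamts12 in the iDamko libraries, at 0.00512 and 0.00544 RPKM, is near the level of single reads. In the plasminogen system, the inhibitor gene Serpine2, whose product blocks urokinase and thrombin, was at 2.89 ± 0.649 RPKM in the wt libraries and 1.44 ± 0.367 in the ko libraries. Lrp1, the endocytic receptor that clears protease and inhibitor complexes, was at 14.4 ± 3.39 and 5.45 ± 1.19 RPKM (SD, n = 4 each). A protease, its inhibitor and their clearance receptor were thus all lower in ko, with limma log2 differences of -1.28 for Plau, -0.67 for Serpine2 and -1.24 for Lrp1.

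Of the other enzymes, Ctsb, the gene of the lysosomal protease cathepsin B, was higher in ko, at 18.3 ± 1.14 RPKM against 9.9 ± 2.09 in wt. Dpp4, the gene of a membrane dipeptidyl peptidase, was higher too, at 0.711 ± 0.2 against 0.193 ± 0.0879 (SD, n = 4 each). Htra1, a secreted serine protease gene, Tll1, a tolloid-like procollagen proteinase gene, and Pcolce, whose product enhances procollagen processing, were lower in ko. Their means were 0.578 ± 0.119 RPKM in the wt libraries and 0.164 ± 0.0639 in the ko libraries for Htra1, 1.22 ± 0.6 and 0.254 ± 0.0452 for Tll1, and 8.22 ± 2.1 and 3.3 ± 0.635 for Pcolce (SD, n = 4 each). Tll1 had the same order of lines as Mmp2 and Adamts4, with 1.82 and 1.66 RPKM in iDam and 0.767 and 0.653 in BryGFP.

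Of 85 genes for matrix substrates 8 were in the table, and all 8 were lower in ko, beside 62.2% of all 622 genes, each selected by the authors as changed. Col5a1, a fibrillar collagen chain gene, was at 14.5 and 14.2 RPKM in iDam, 32.6 and 43.3 in BryGFP, 6.52 and 4.96 in iDamko, and 8.61 and 7.68 in Ainv18ko. Fbn2, a microfibril gene, was at 27.8 ± 5.51 RPKM in the wt libraries and 9.72 ± 2.53 in the ko libraries, and Lamb2, a basement membrane laminin chain gene, at 21.7 ± 3.93 and 10.6 ± 1.32 (SD, n = 4 each). Fbln1 and Fbln2, fibulin genes, were at 5.46 ± 1.03 and 7.01 ± 0.617 RPKM in wt and at 2.39 ± 0.786 and 2.9 ± 0.75 in ko. Col6a1, Col23a1 and Lama3 were under 1 RPKM on average in wt, at 0.68, 0.732 and 0.459. Between the wt lines Col5a1 was lower in iDam (-1.33, adjusted p = 0.00261 in limma), and Lama3 (0.44, 0.0124) and Col23a1 (0.52, 0.0192) were higher there.

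**Figure D5:**
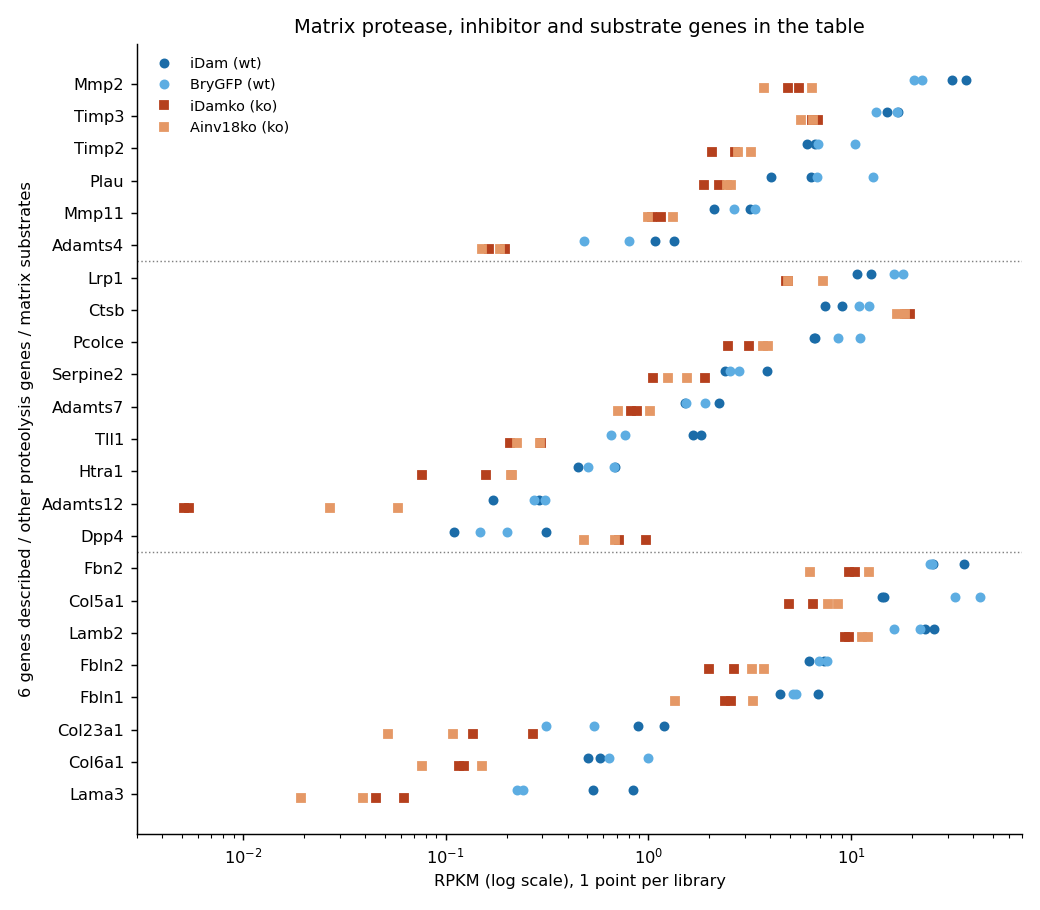
RPKM on a log scale (horizontal axis), 1 point per library, for the 6 genes (top), 9 other genes of matrix proteolysis (middle) and 8 matrix substrate genes (bottom), with circles for wt and squares for ko. Ctsb and Dpp4 have their ko points above their wt points, at 16.8 to 19.5 and 0.481 to 0.968 RPKM, and the other 21 genes have them below.

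The 6 genes did not follow one pattern over the libraries. Likeness was measured as the root mean square difference of log2(RPKM + 1) over the 8 libraries after centring each gene on its mean, where smaller means more alike. Among the 15 pairs it ran from 0.21 for Mmp11 and Timp3 to 0.79 for Mmp2 and Adamts4, and Mmp2 was at 0.59 or more from each of the other 5. Among genes that averaged 1 RPKM or more, those nearest to Mmp2 were Gm266 (0.22), Unc5c (0.28) and Aplnr (0.34), beside a median of 0.96 over such genes. Nearest to Plau were St6gal1 (0.17), Gsn and Jdp2 (0.19 each), and nearest to Adamts4 were Rnf125 (0.087), Atxn1 and BC026585 (0.12 each). Nearest to Timp2 were Fam84b, Lrp1 and Mrvi1 (0.16 each), nearest to Timp3 were Irgm1 (0.097), Wnt2 (0.1) and Klf8 (0.11), and nearest to Mmp11 were Lpin1, Rhobtb1 (0.11 each) and Itpripl2 (0.12). This measure compares size as well as shape, so weakly expressed genes lie near one another, and it is given as a description over these 8 libraries.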

How the data were processed

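RNA-seq of 8 libraries was analysed from 1 deposited table. Per the labels' protocols, ribosomal RNA was removed from total RNA, and libraries were made with a SOLiD total RNA kit. The submitters' processing notes name edgeR, with no version, and the mm9 build; neither the aligner nor the gene annotation is given in the sources used here. For each comparison of the ko libraries with a wt line, the authors deposited a p-value, an FDR, a log2 fold and the gene's average log2 CPM, all used as deposited. The sign of the deposited log2 folds was wt over ko in all 622 genes. No unit is named for the deposited library values, and RPKM was settled from the numbers: the length implied by the authors' CPM and RPKM was 0.999 times the annotated length (median, 56 genes with 1 transcript; quartiles 0.98 and 1.01). The authors' table repeats the 4 ko columns without any change in value, and each was used once.

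Columns name lines, not samples, and were mapped to lines by name. Two-sided limma tests (limma 3.58.1, R 4.3.3) with a trend of variance on mean were run on log2(RPKM + 1) over genes averaging 1 RPKM or more, with Benjamini-Hochberg adjustment over all tested genes and a threshold of 0.05. RPKM are not counts, so no count test was used. On simulated data of 360 genes, ko against wt recovered 199 of the 200 genes given a log2 change of 1.5, with 6 false calls. The simulated libraries varied independently and had no line differences. Of the 6 genes described only Mmp2, at -2.21, had a ko against wt difference of larger size than 1.5. Recovery at the sizes of the other genes, or with libraries that deviate together, was not tested. How many calls are false where the lines of a genotype differ, as iDam and BryGFP did for 25.3% of the filtered genes, was not tested. The p-values measure the spread between libraries of these lines, and the library numbers were not taken to pair the samples. Named genes are the 6 described, the members of the pathway and marker lists found in the table, genes that overlap one of the 6 (1 overlap is not reported here), and for each of the 6 the 3 genes of nearest pattern that averaged 1 RPKM or more. The 6 genes and all lists were chosen with earlier results of these data known. Alternatives were pseudocounts of 0.1 and 0.5, no filter, a filter of 0.1 RPKM, no trend, quantile normalization, a replicate block and leaving out each library. For ko against wt, line means as replicates and a fit with 1 mean per line were also run.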

Additional observations from a re-analysis of the deposited data

How the results depend on the processing

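With no filter, 622 genes passed in ko against wt, 591 in iDamko against iDam and 582 in Ainv18ko against BryGFP, and with a filter of 0.1 RPKM 593, 576 and 568, as more genes were tested. Leaving out each library gave 42 to 96 genes for the wt lines, and the difference between the ko effects had 15 to 25, where the library left alone in a line is assumed to vary like the others. Correlations of same-numbered deviations from the line mean, over 360 genes, were 0.409 for iDam with iDamko, 0.516 for iDam with Ainv18ko and 0.695 for iDamko with Ainv18ko, but -0.203, -0.0307 and 0.00783 for BryGFP with iDam, iDamko and Ainv18ko, so the numbers were not taken to pair the samples. With library number as a replicate block the counts were 359, 359 and 357 for the ko comparisons, 110 for the wt lines, 13 for the ko lines and, for the ko effects' difference, 53, and Mmp2 (0.65, adjusted p = 0.045 in limma) and Plau (-0.77, adjusted p = 0.0327) passed between the wt lines. With the BryGFP numbers crossed, chosen after seeing the data, the count for the wt lines was 107, and neither Mmp2 nor Plau was among them. The direction of differences that passed no threshold changed as follows. Under quantile normalization Mmp11 came to 0.085 between the wt lines and 0.052 between the ko lines, and the difference between the ko effects to -0.033 for Mmp11, -0.022 for Timp2 and -0.05 for Timp3. Without 1 library, the wt lines gave -0.36 to 0.069 for Mmp11 and -0.075 to 0.25 for Timp3. The ko lines gave -0.25 to 0.39 for Mmp2, -0.15 to 0.067 for Mmp11 and -0.0068 to 0.036 for Adamts4. The difference between the ko effects gave -0.11 to 0.32 for Mmp11, -0.15 to 0.41 for Timp2 and -0.14 to 0.19 for Timp3. The cause of these changes was not tested. In ko against wt no alternative turned the direction of any of the 6 genes, and the Mmp11 and Adamts4 calls were lost under quantile normalization only. Depth limits Adamts4 most, with an estimated 28 to 49 reads per ko library, followed by Mmp11 with 50 to 80.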
